A study of Homo sapiens with 4 samples.

Results

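Solute carriers (SLC) are membrane proteins that move sugars, amino acids, ions, metals, vitamins and metabolites across cell and organelle membranes, by facilitated diffusion or by exchange and co-transport driven by ion gradients. Most are inserted into the membrane at the endoplasmic reticulum and work at the cell surface, where an absorptive epithelium such as the gut uses them to take up nutrients. The SLC25 family is different: its members are made in the cytosol, imported after translation and placed in the mitochondrial inner membrane. Some SLC amino acid carriers work as pairs, a light chain of the SLC7 family bound to a heavy chain of the SLC3 family.

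The transcripts described here are those whose gene name has the form SLC, number, letter, number, or begins with SLCO (the organic anion transporters), outside the pseudogene classes. There were 142 of 9880 listed transcripts (1.44%) in HT-29, from 87 gene names, and 196 of 11943 (1.64%) in CaCo-2, from 112 gene names. Together the lines gave 141 names, where the RefSeq table of GRCh38.p14 holds 391 protein-coding symbols of this form. By the usual site of the protein, 23 HT-29 transcripts were SLC25 carriers, 83 were plasma membrane transporters and 36 were transporters of the endoplasmic reticulum, Golgi, endosomes, lysosomes or vesicles, called organelle transporters below. The same groups held 27, 111 and 57 transcripts in CaCo-2, and 1 transcript, of the mitochondrial exchanger SLC8B1, belonged to none.

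The study asked which RNAs are bound to beta-catenin, the co-activator of Wnt signalling, in the nuclei of HT-29 and CaCo-2, both untreated human colon adenocarcinoma lines. In RNA immunoprecipitation (RIP), an antibody captures a protein from a lysate and the RNA held with the protein is read by sequencing. Each line had 1 library from a beta-catenin RIP of nuclear lysate and 1 input library made with no antibody, 4 libraries in all. With 1 library per group no value has a replicate error and no difference was tested.

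Levels are in FPKM, fragments scaled by transcript length and library size by the authors, and each value belongs to 1 transcript. In both tables the RIP FPKM of a listed transcript is 1.5 times its input FPKM or more, so the direction of a ratio is fixed by the listing and is no finding. SLC transcripts outside the tables were not analysed here. The ratio used is the log2 of 2 levels divided, RIP over input, each after adding 1 FPKM. It is given for transcripts that reached 1 FPKM in either library of their line. This filter kept all 142 HT-29 and 160 of the 196 CaCo-2 SLC transcripts. RIP levels in the HT-29 table start at 1.31 FPKM, whereas the CaCo-2 table reaches down to 0.842. The filter therefore removed nothing from the HT-29 table. The part of these unlike floors in medians, shares and levels set side by side for the lines was not tested. Depth is unknown from these tables, and a transcript at a few FPKM can rest on few fragments.

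SLC transcripts were listed mostly at a few FPKM. In HT-29 their median level was 2.26 FPKM in the RIP and 0.629 in input, and in CaCo-2 it was 1.92 in the RIP and 0.785 in input. At least 2-fold above input were 73 of 142 in HT-29 (51.4%), where the share among all transcripts past the filter was 56.0%. In CaCo-2 they were 56 of 160 (35%), against 40.8% of all. The median log2 ratio was 1.04 in HT-29 and 0.72 in CaCo-2, beside 1.14 and 0.82 for all transcripts. As a set, SLC transcripts therefore lay near the rest of each table. Just inside the 2-fold threshold were SLC35B4 in HT-29 and SLC35F5 in CaCo-2, both at a log2 ratio of 1.01, and just outside it in CaCo-2 was SLC12A4, at 0.98.

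A ratio of 2-fold is reached by construction when the input is listed at 0, which held for 46 of the 142 SLC transcripts in HT-29 and 35 of the 160 in CaCo-2. Where both libraries of the line reached 1 FPKM, 8 of 51 SLC transcripts (15.7%) were at least 2-fold higher in the HT-29 RIP, against 25.2% of all transcripts under that filter. In CaCo-2 there were 6 of 55 (10.9%), against 13.1%.

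**Figure D1:**
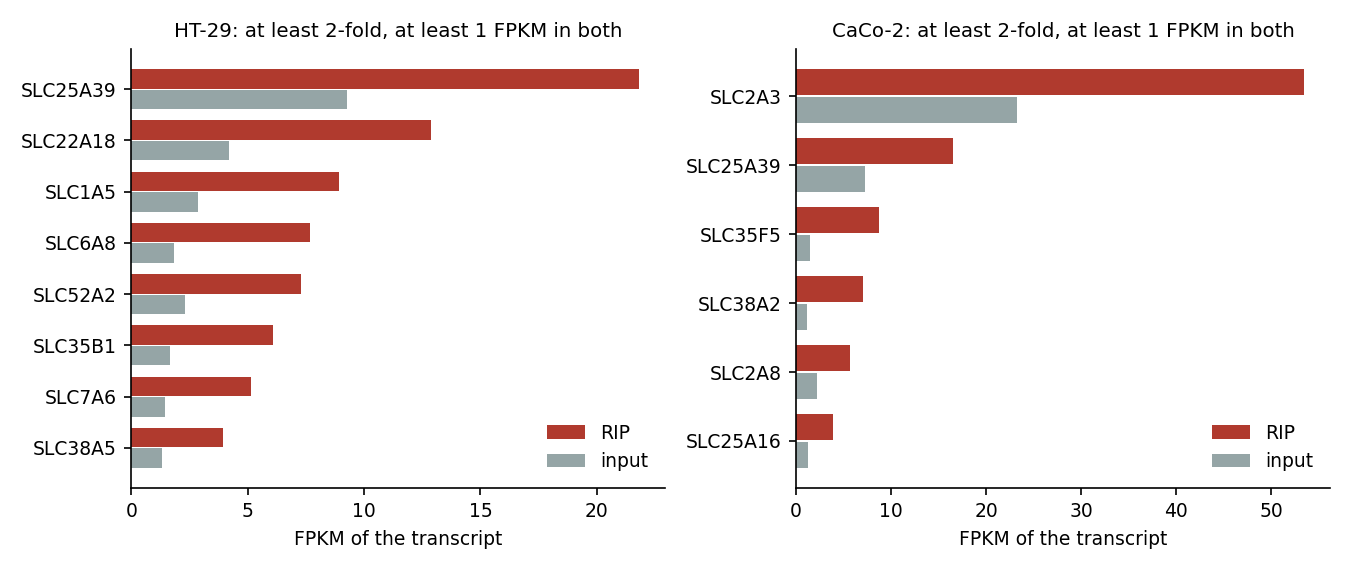
Levels of the SLC transcripts that reached 1 FPKM in both libraries and a ratio of at least 2-fold, in HT-29 (left) and CaCo-2 (right). Bars give the FPKM of 1 transcript in the RIP library (red) and the input library (grey), 1 library each. SLC25A39 is in both panels, at 21.8 FPKM in the RIP versus 9.26 in input in HT-29 and 16.5 FPKM in the RIP versus 7.27 in input in CaCo-2, and SLC2A3 in CaCo-2 is the highest bar at 53.5.

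Among the mitochondrial carriers, SLC25A39 stood out by level. It is known as a carrier that brings glutathione into mitochondria. Its protein-coding transcript ENST00000225308 (hg19 chromosome 17, 42396993 to 42402238) was at 21.8 FPKM in the RIP versus 9.26 in input in HT-29, which is a log2 ratio of 1.15. For CaCo-2 the same transcript was at 16.5 FPKM in the RIP versus 7.27 in input, a log2 ratio of 1.08. The authors' deposited table gives q of 0.0486 in HT-29 and 0.0274 in CaCo-2, from 1 library per side. Of SLC transcripts listed in both lines it was the only one with q at or below 0.05 in both, and 19 of the 1928 transcripts listed in both lines (0.985%) reached that in the authors' deposited tables. It was also the only SLC transcript with at least 1 FPKM in all 4 libraries and 2-fold in both lines.

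Other SLC25A39 transcripts were lower. A retained-intron form was at 2.99 FPKM in the RIP versus 1.25 in input in HT-29. In CaCo-2, a shorter protein-coding form was at 1.21 FPKM in the RIP versus 0 in input, and another at 1.07 FPKM in the RIP versus 0.389 in input. The close relative SLC25A40 was listed in HT-29 by a pair of nonsense-mediated-decay transcripts, at 3.08 FPKM in the RIP versus 1.39 in input and 2.20 FPKM in the RIP versus 0.773 in input. These log2 ratios, 0.77 and 0.85, lay below that of SLC25A39.

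SLC25A3, the phosphate carrier that feeds ATP synthesis, was listed by 4 transcripts in HT-29. The protein-coding transcript ENST00000188376 (chromosome 12, 98987403 to 98995775) was at 2.28 FPKM in the RIP versus 0 in input in HT-29, and at 2.05 FPKM in the RIP versus 0.0121 in input in CaCo-2. A retained-intron form within it (98991343 to 98992345) was at 2.82 FPKM in the RIP versus 1.60 in input in HT-29 and 3.79 FPKM in the RIP versus 1.87 in input in CaCo-2. The 4 HT-29 transcripts of this gene were 2 protein-coding and 2 retained-intron forms, and only 1 of the 4 had an input of 0. ENST00000188376 was at or near 0 in both inputs, while the retained-intron form within it was not. The contrast is given for this pair of transcripts only, not for protein-coding forms in general.

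Carriers of iron were listed in both lines. SLC25A37, mitoferrin-1, was at 2.26 FPKM in the RIP versus 0 in input in HT-29, by a nonsense-mediated-decay transcript, and at 1.86 FPKM in the RIP versus 0.807 in input in CaCo-2. The authors' deposited table gives this HT-29 transcript a q of 0.0543. SLC25A28, mitoferrin-2, was at 1.59 FPKM in the RIP versus 0.0126 in input in HT-29 by a protein-coding transcript and at 1.60 FPKM in the RIP versus 0.828 in input in CaCo-2 by a processed transcript.

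The nucleotide carriers were among the more abundant SLC25 transcripts. SLC25A6, an ADP/ATP carrier, was listed in HT-29 by processed transcripts at 12.6 FPKM in the RIP versus 7.79 in input and 6.03 FPKM in the RIP versus 2.83 in input. SLC25A5, another ADP/ATP carrier, was listed in CaCo-2 at 4.15 FPKM in the RIP versus 2.19 in input. These carriers are close copies of each other and have processed pseudogenes, so how reads were shared among them is uncertain. SLC25A36, a pyrimidine nucleotide carrier, shared a retained-intron transcript between the lines, at 4.21 FPKM in the RIP versus 1.98 in input in HT-29 and 2.59 FPKM in the RIP versus 0.835 in input in CaCo-2. SLC25A51, which carries NAD, was at 4.16 FPKM in the RIP versus 2.73 in input in CaCo-2.

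Carriers of metabolites and cofactors made up much of the rest. SLC25A11, the oxoglutarate carrier of the malate-aspartate shuttle, had log2 ratios of 0.51 in HT-29, at 2.63 FPKM in the RIP versus 1.56 in input, and 0.49 in CaCo-2, at 1.38 FPKM in the RIP versus 0.692 in input. SLC25A12 and SLC25A13 are the aspartate-glutamate carriers of the same shuttle. SLC25A12 was listed in HT-29 at 1.74 FPKM in the RIP versus 0.522 in input, and SLC25A13 in CaCo-2 by 3 transcripts, the highest at 3.81 FPKM in the RIP versus 2.13 in input. SLC25A15, the ornithine carrier, was at 2.39 FPKM in the RIP versus 0.0218 in input in HT-29. SLC25A16 was one of the CaCo-2 members measured in both libraries, at 3.93 FPKM in the RIP versus 1.27 in input, a log2 ratio of 1.12. SLC25A44, a branched-chain amino acid carrier, had the highest SLC25 ratio in HT-29, at 2.93 FPKM in the RIP versus 0 in input. The SLC25 list follows the family name, and SLC25A17, listed in CaCo-2 at 1.68 FPKM in the RIP versus 0.654 in input, is known as a peroxisomal carrier.

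SLC25 transcripts had lower median ratios than plasma membrane transcripts in both lines under the 1 FPKM filter. The median log2 ratio was 0.85 for SLC25 and 1.16 for plasma membrane transcripts in HT-29, a difference of -0.31, and 0.66 and 0.81 in CaCo-2, a difference of -0.15. At least 2-fold in the RIP were 8 of 23 SLC25 transcripts (34.8%) and 45 of 83 plasma membrane transcripts (54.2%) in HT-29, beside 56.0% of all transcripts. In CaCo-2 they were 6 of 23 SLC25 (26.1%) and 33 of 88 plasma membrane transcripts (37.5%), beside 40.8% of all. An input of 0 was given for 17.4% of SLC25 and 31.3% of plasma membrane transcripts in HT-29, and for 8.70% and 23.9% in CaCo-2, and the part of these shares in the difference was not tested.

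Without transcripts at input 0, a choice made after seeing the data, the HT-29 medians were 0.80 for SLC25 and 0.80 for plasma membrane transcripts, and the CaCo-2 medians were 0.62 and 0.66. With at least 1 FPKM in both libraries the HT-29 medians were 0.76 for SLC25 and 0.65 for plasma membrane transcripts, and the CaCo-2 medians 0.62 and 0.57, so the order turned round. Under that filter, 1 of 11 SLC25 and 6 of 29 plasma membrane transcripts were at least 2-fold in HT-29, beside 25.2% of all transcripts, and 2 of 9 SLC25 and 2 of 32 plasma membrane transcripts in CaCo-2, beside 13.1%. The order of SLC25 and plasma membrane medians thus changed with the filter, and the difference was not tested. Organelle transporters had a median of 1.20 in HT-29, with 20 of 36 at 2-fold or more (55.6%, beside 56.0% of all) and input at 0 for 44.4%. The CaCo-2 median was 0.66, with 17 of 48 at 2-fold or more (35.4%, beside 40.8% of all) and input at 0 for 25%.

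**Figure D2:**
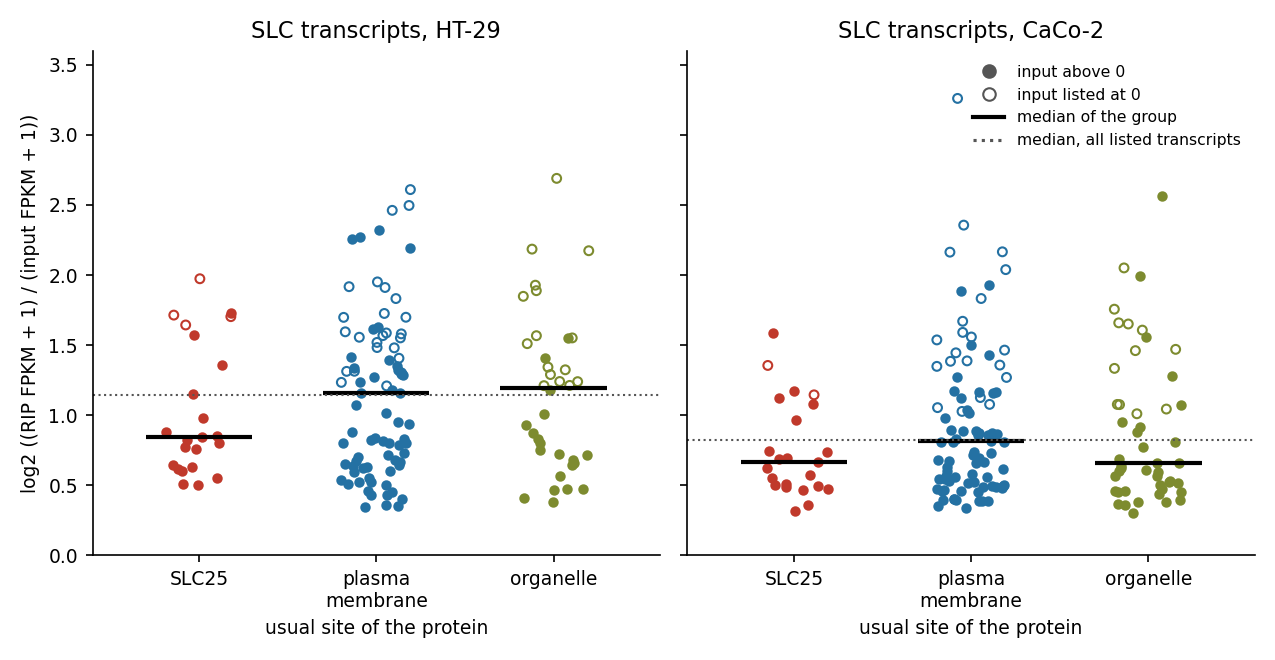
log2 ratio of RIP over input (FPKM plus 1) for each SLC transcript past the filter, by line and by the usual site of the protein. Open circles are transcripts with 0 FPKM in input, thick lines are group medians and the dotted line is the median of all transcripts past the filter. SLC25 medians (0.85 in HT-29, 0.66 in CaCo-2) lie below the plasma membrane medians (1.16 and 0.81), and every open circle lies at a log2 ratio of 1 or more.

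Amino acid transporters were the largest substrate group, with 26 transcripts of 16 names in HT-29 and 29 of 13 names past the filter in CaCo-2. At least 2-fold were 13 of the 26 in HT-29 (50%), where 56.0% of all transcripts were, and 12 of the 29 in CaCo-2 (41.4%), where 40.8% were. The input was 0 for 6 of them in each line. Where both libraries reached 1 FPKM, 1 of 13 amino acid transcripts was at least 2-fold in CaCo-2 (7.69%, against 13.1% of all). In HT-29 there were 4 of 13 (30.8%, against 25.2% of all), among the 8 SLC transcripts at 2-fold under that filter. SLC1A5, the glutamine importer ASCT2 (chromosome 19, 47278142 to 47288162), was at 8.93 FPKM in the RIP against 2.88 in input. SLC6A8, the creatine transporter (chromosome X, 152954922 to 152960782), was at 7.68 FPKM in the RIP versus 1.84 in input, the largest log2 ratio of the 8 at 1.61. SLC7A6, a light chain for cationic and neutral amino acids, was at 5.16 FPKM in the RIP versus 1.46 in input by a nonsense-mediated-decay transcript. SLC38A5, a glutamine transporter, was at 3.93 FPKM in the RIP versus 1.34 in input. None of these had q at or below 0.05 in the authors' deposited table; the lowest was 0.149 for SLC6A8. A protein-coding SLC7A6 transcript was at 2.70 FPKM in the RIP versus 0.000334 in input in CaCo-2.

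SLC7A7, the y+LAT1 light chain that exports cationic amino acids from gut and kidney epithelium, was the amino acid transporter with the highest level. In CaCo-2 a protein-coding transcript (ENST00000555702, chromosome 14, 23242431 to 23289020) was at 39.1 FPKM in the RIP against 20.9 in input, a log2 ratio of 0.87. The same transcript was at 3.78 FPKM in the RIP versus 0.00103 in input in HT-29, a log2 ratio of 2.26. A shorter CaCo-2 transcript (23282114 to 23285085) had the highest ratio of any SLC transcript in that line, 3.26, at 8.58 FPKM in the RIP versus 0 in input. Another CaCo-2 transcript was at 3.49 FPKM in the RIP versus 0 in input and yet another at 7.58 FPKM in the RIP versus 4.41 in input. Transcripts of this gene in 1 library thus differed from input 0 to input 20.9. The gene's partner heavy chain, SLC3A2, was listed in CaCo-2 at 5.05 FPKM in the RIP versus 3.36 in input by a protein-coding transcript and in HT-29 at 4.57 FPKM in the RIP versus 2.43 in input.

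SLC38A2, the amino acid transporter SNAT2, was listed by 4 transcripts in HT-29 and 6 in CaCo-2, of which 2 and 5 were retained-intron forms. The form ENST00000552703 (chromosome 12, 46754743 to 46756344) was at 6.43 FPKM in the RIP versus 2.84 in input in HT-29 and 7.04 FPKM in the RIP versus 1.11 in input in CaCo-2. Its log2 ratio was 0.95 in HT-29 and 1.93 in CaCo-2. An HT-29 processed transcript was at 5.10 FPKM in the RIP versus 0 in input. The most abundant form in CaCo-2, also retained-intron, was at 11.0 FPKM in the RIP versus 6.32 in input. SLC7A1, a cationic amino acid importer, was listed in HT-29 at 4.51 FPKM in the RIP versus 0 in input.

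A pair of amino acid transporters had q at or below 0.05 for CaCo-2 in the authors' deposited table. SLC38A7, a glutamine transporter known at the lysosome and placed by family in the plasma membrane group, was at 1.99 FPKM in the RIP versus 0.457 in input with q of 0.0208. SLC6A6, the taurine transporter, was at 0.956 FPKM in the RIP versus 0 in input, below the filter, with q of 0.00279.

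Sugar transporters included the most abundant SLC transcript of either table. SLC2A3, the glucose transporter GLUT3, was at 53.5 FPKM in the CaCo-2 RIP against 23.3 in input (ENST00000544291, chromosome 12, 8083231 to 8088782), a log2 ratio of 1.17. SLC2A14 is a close copy of SLC2A3 and was listed at 1.22 FPKM in the RIP versus 0.522 in input, so the split of reads between them is uncertain. SLC2A1, the widespread glucose transporter GLUT1, was listed in both lines by the same protein-coding transcript, at 2.59 FPKM in the RIP versus 0.587 in input in HT-29 and 2.21 FPKM in the RIP versus 0.752 in input in CaCo-2. SLC2A8, an intracellular glucose transporter, was listed by 5 transcripts in CaCo-2. One of them was at 4.92 FPKM in the RIP versus 0.00151 in input and another at 5.67 FPKM in the RIP versus 2.17 in input. SLC45A4 had the highest sugar-list level in HT-29, at 12.6 FPKM in the RIP versus 8.30 in input, but a log2 ratio of 0.55.

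Of the sugar list by family number, 3 of 8 HT-29 transcripts (37.5%, beside 56.0% of all) and 5 of 16 CaCo-2 transcripts (31.2%, beside 40.8%) were at least 2-fold. The list also holds SLC5A6, which carries biotin and pantothenate and no sugar. A nonsense-mediated-decay transcript of SLC5A6 (chromosome 2, 27428275 to 27434806) was at 2.25 FPKM in the RIP versus 0 in input in HT-29 and 3.48 FPKM in the RIP versus 0 in input in CaCo-2. A protein-coding SLC5A6 transcript was also listed in CaCo-2, at 1.78 FPKM in the RIP versus 1.12 in input.

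Transporters of ions and pH were led by SLC4A2, the widespread chloride-bicarbonate exchanger AE2, with 6 transcripts in each line. In HT-29 its most abundant form was at 9.52 FPKM in the RIP versus 5.78 in input (log2 ratio 0.63), while 5 of the 6 transcripts were at 2-fold or more and 3 had input listed at 0. In CaCo-2 the most abundant form was at 7.21 FPKM in the RIP versus 4.14 in input (log2 ratio 0.68), and 1 of the 6 was at 2-fold, with another below the filter. SLC12A9 was listed in both lines by a processed transcript, at 1.65 FPKM in the RIP versus 0 in input in HT-29 and 1.72 FPKM in the RIP versus 0 in input in CaCo-2. SLC4A7, a sodium-bicarbonate cotransporter, had q of 0.0215 in CaCo-2 in the authors' deposited table, at 0.9996 FPKM in the RIP versus 0 in input. Over the list, 8 of 15 HT-29 transcripts (53.3%, beside 56.0% of all) and 6 of 24 CaCo-2 transcripts (25%, beside 40.8%) were at 2-fold or more, and none of these had 1 FPKM in both libraries.

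Metal transporters included several with high ratios in HT-29 and input below 1 FPKM. SLC41A2 and SLC41A3, which carry magnesium or are related to its carriers, were at 6.36 FPKM in the RIP versus 0.472 in input and at 4.64 FPKM in the RIP versus 0 in input. SLC39A3, a zinc importer, was at 4.97 FPKM in the RIP versus 0.236 in input. SLC39A9, a zinc transporter of the secretory pathway, was listed by the same transcript in both lines, at 1.88 FPKM in the RIP versus 0.710 in input in HT-29 and 3.37 FPKM in the RIP versus 0.796 in input in CaCo-2. SLC39A8, which imports zinc and manganese, was at 0.943 FPKM in the RIP versus 0 in input in CaCo-2, where the authors' deposited table has a q of 0.00541. At 2-fold or more were 10 of 17 HT-29 transcripts of the metal list (58.8%) and 6 of 14 in CaCo-2 (42.9%), shares near the 56.0% and 40.8% of all transcripts. In neither line was any of them measured at 1 FPKM in both libraries.

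Intestinal iron carriers were also listed. SLC11A2, the iron importer DMT1, was counted in the organelle group. It was at 3.37 FPKM in the RIP versus 1.80 in input in HT-29 and 3.28 FPKM in the RIP versus 2.17 in input in CaCo-2, by different protein-coding transcripts. SLC40A1, the iron exporter ferroportin, was listed in HT-29 by a processed transcript at 3.41 FPKM in the RIP versus 0.681 in input. Its retained-intron form was at 1.69 FPKM in the RIP versus 0.874 in input.

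Vitamin transporters were few. SLC52A2, a riboflavin transporter on chromosome 8, was listed in HT-29 by a protein-coding transcript (145582217 to 145584930) at 7.30 FPKM in the RIP versus 2.29 in input. In CaCo-2 another protein-coding SLC52A2 transcript (145582241 to 145584930) was at 1.90 FPKM in the RIP versus 0 in input, where the authors' deposited table has a q of 0.0202. SLC46A1, the proton-coupled folate transporter of the small intestine, was at 7.45 FPKM in the RIP versus 4.90 in input in CaCo-2. SLC23A1, the sodium-coupled vitamin C transporter, was at 5.85 FPKM in the RIP versus 3.47 in input there. At 2-fold were 2 of 3 HT-29 and 1 of 5 CaCo-2 transcripts of the vitamin list, beside 56.0% and 40.8% of all.

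Organic ion, bile acid and steroid transporters had 5 of 6 HT-29 and 3 of 5 CaCo-2 transcripts at 2-fold, where 56.0% and 40.8% of all transcripts were. An input of 0, which fixes such a ratio, was given for 3 of these transcripts in each line. SLC22A18, a member of the organic cation transporter family from the imprinted region of chromosome 11 (2923513 to 2946457), was at 12.9 FPKM in the RIP versus 4.21 in input in HT-29, a log2 ratio of 1.41. Its antisense partner gene was also listed in that line, and the strandedness of the libraries is not given in the sources used here, so reads of the pair may not be told apart. SLCO1B3, an organic anion transporter of the liver, was at 2.76 FPKM in the RIP versus 0 in input in HT-29. SLC10A3, of the bile acid carrier family, was at 3.58 FPKM in the RIP versus 0.000189 in input in HT-29, and SLC22A23 was at 3.11 FPKM in the RIP versus 0 in input in CaCo-2. SLCO2B1 was listed in both lines by different protein-coding transcripts, at 1.49 FPKM in the RIP versus 0 in input in HT-29 and 1.61 FPKM in the RIP versus 0 in input in CaCo-2.

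The smaller lists gave few values. At 2-fold were 2 of 4 HT-29 and 0 of 2 CaCo-2 transcripts of carboxylate carriers, 1 of 2 and 0 of 3 of nucleoside carriers, and 4 of 10 and 4 of 9 of lipid and choline carriers, beside 56.0% and 40.8% of all. SLC16A3, the lactate exporter MCT4, was at 6.80 FPKM in the RIP versus 4.38 in input in HT-29, and a shorter form was at 2.24 FPKM in the RIP versus 0 in input. SLC16A5 was at 7.95 FPKM in the RIP versus 4.81 in input. The nucleoside carrier SLC29A2 was at 5.79 FPKM in the RIP versus 2.84 in input in HT-29 by a nonsense-mediated-decay transcript. In CaCo-2 a different, protein-coding transcript of it was at 1.01 FPKM in the RIP versus 0.323 in input. SLC44A2, of the choline transporter-like family, was listed in both lines by the same protein-coding transcript, at 1.46 FPKM in the RIP versus 0 in input in HT-29 and 1.94 FPKM in the RIP versus 0 in input in CaCo-2. A nonsense-mediated-decay form of it was at 3.32 FPKM in the RIP versus 1.45 in input in HT-29 and 2.48 FPKM in the RIP versus 1.41 in input in CaCo-2. The highest SLC44A2 ratio in CaCo-2, 2.36, was that of another protein-coding transcript, at 4.12 FPKM in the RIP versus 0 in input.

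**Figure D3:**
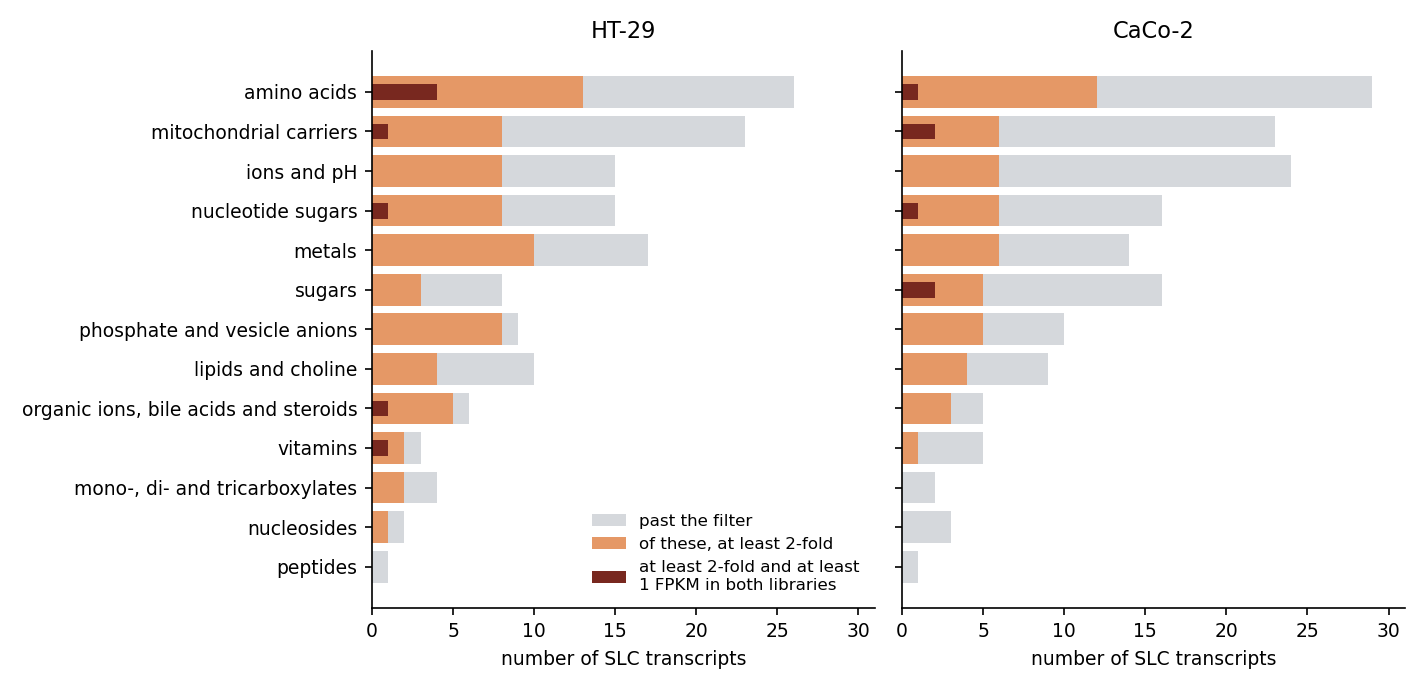
Number of SLC transcripts per substrate list in HT-29 (left) and CaCo-2 (right). Grey bars count transcripts past the filter, orange those at least 2-fold higher in the RIP, and dark red those that also had at least 1 FPKM in both libraries. Amino acid carriers form the longest bars (26 in HT-29, 29 in CaCo-2), and the dark bars reach at most 4.

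Organelle transporters of the SLC35 family, which carry nucleotide sugars and related donors into the Golgi and endoplasmic reticulum, held 15 transcripts in HT-29 and 16 past the filter in CaCo-2. At 2-fold were 8 in HT-29 (53.3%, beside 56.0% of all) and 6 in CaCo-2 (37.5%, beside 40.8%). SLC35B2, which brings the sulfate donor PAPS into the Golgi (chromosome 6, 44221843 to 44225291), was at 22.0 FPKM in the RIP versus 11.5 in input in HT-29, the highest RIP level of an SLC transcript in that line. Its log2 ratio was 0.88 and its q 0.0365 in the authors' deposited table. In CaCo-2 a processed transcript of SLC35B2 was at 2.14 FPKM in the RIP versus 0 in input, and the authors' deposited table has a q of 0.0189 for it.

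SLC35C2 was at 2.38 FPKM in the RIP versus 0 in input in CaCo-2 (chromosome 20, 44978167 to 44993040), where the authors' deposited table has a q of 0.00157. In HT-29 it was listed by 6 transcripts, of which the most abundant was at 4.62 FPKM in the RIP versus 2.40 in input and 3 were at 0 in input. SLC35A2, the UDP-galactose transporter, was listed by the same transcript in both lines, at 6.11 FPKM in the RIP versus 2.74 in input in HT-29 and 4.11 FPKM in the RIP versus 2.24 in input in CaCo-2. SLC35B1, which exchanges ATP into the endoplasmic reticulum, was at 6.11 FPKM in the RIP versus 1.68 in input in HT-29. SLC35F5 in CaCo-2 was at 8.74 FPKM in the RIP versus 1.45 in input by a nonsense-mediated-decay transcript, with the largest ratio among the 6 members measured in both libraries of that line, 1.99.

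Vesicle and lysosome transporters included the SLC transcript with the lowest q. SLC17A9, which loads ATP into vesicles (ENST00000370349, chromosome 20, 61584059 to 61599949), was at 5.45 FPKM in the RIP versus 0 in input in HT-29. The authors' deposited table gives it a q of 2.06e-05, and its log2 ratio, 2.69, was the highest of the SLC transcripts in HT-29. SLC38A9, the lysosomal arginine sensor, was at 3.14 FPKM in the RIP versus 0 in input in CaCo-2. SLC50A1, a sugar transporter, was at 3.51 FPKM in the RIP versus 0 in input in HT-29 by a processed transcript. SLC37A4, the glucose-6-phosphate transporter of the endoplasmic reticulum, was listed by 5 CaCo-2 transcripts, 4 of them with input at 0 and none above 2.05 FPKM. In the list of phosphate and vesicle anion carriers, 8 of 9 HT-29 transcripts were at 2-fold, 7 of them with an input of 0, beside 56.0% of all transcripts. In CaCo-2 5 of 10 were, all 5 with an input of 0, beside 40.8% of all.

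In the authors' deposited tables, q was at or below 0.05 for 3 of the 142 SLC transcripts in HT-29 (2.11%), against 3.08% of all listed transcripts. In CaCo-2 it was so for 5 of the 160 past the filter (3.12%), against 2.46% of all transcripts past it, and for SLC4A7, SLC6A6 and SLC39A8 below the filter. The share over all listed CaCo-2 transcripts was 2.24%. In HT-29 they were SLC17A9, SLC25A39 and SLC35B2. In CaCo-2 they were SLC35C2, SLC35B2, SLC52A2, SLC25A39 and SLC38A7. Each of these was a protein-coding transcript except the SLC35B2 transcript of CaCo-2, which was a processed transcript.

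By transcript class, SLC transcripts of HT-29 comprised 77 protein-coding, 27 processed, 22 retained-intron and 16 nonsense-mediated-decay forms, and those of CaCo-2 97, 33, 47 and 19. Retained-intron forms were 15.5% of SLC transcripts in HT-29 and 24% in CaCo-2, beside 17.0% and 22.7% of all listed transcripts. At least 2-fold in the RIP were 7 of the 22 SLC retained-intron transcripts in HT-29 (31.8%), against 52.0% of that class in the table. In CaCo-2 there were 6 of 34 (17.6%), against 32.0%. The input was 0 for 13.6% of the HT-29 and 8.82% of the CaCo-2 SLC retained-intron transcripts, against 30.1% and 21.6% of the class. Nonsense-mediated-decay SLC transcripts were at 2-fold for 8 of 16 HT-29 and 6 of 16 CaCo-2 entries, against 60.2% and 47.3% of that class. Protein-coding SLC transcripts were at 2-fold in 51.9% and 37% of cases, against 53.2% and 42.0% of their class, and processed transcripts in 66.7% and 48.3%, against 63.3% and 45.1%. None of these shares was tested.

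The lines shared more SLC gene names than SLC transcripts. Of the names, 58 were listed in both lines, which is 66.7% of the HT-29 names and 51.8% of the CaCo-2 names, beside 59.2% and 51.6% for all gene names. Of the transcripts, 31 were listed in both, 21.8% of the HT-29 list and 15.8% of the CaCo-2 list, beside 19.5% and 16.1% for all transcripts. They came from 25 names, with 6 SLC25, 17 plasma membrane and 8 organelle transcripts.

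At least 2-fold in the RIP of both lines were 5 of these 31 transcripts (16.1%), against 30.0% of all transcripts past the filter in both tables. They were the SLC5A6, SLC25A3, SLC12A9, SLC44A2 and SLC25A39 transcripts given above. With input listed at 0 in both lines were 3 of them, SLC5A6, SLC12A9 and SLC44A2. Only SLC25A39 remained with at least 1 FPKM in all 4 libraries, where 1 of 8 SLC transcripts was at 2-fold in both lines, against 12.7% of all. Counted by gene name, where the transcript may differ between lines, 20 of 50 SLC names had a transcript at 2-fold in both (40%), against 42.1% of all names.

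**Figure D4:**
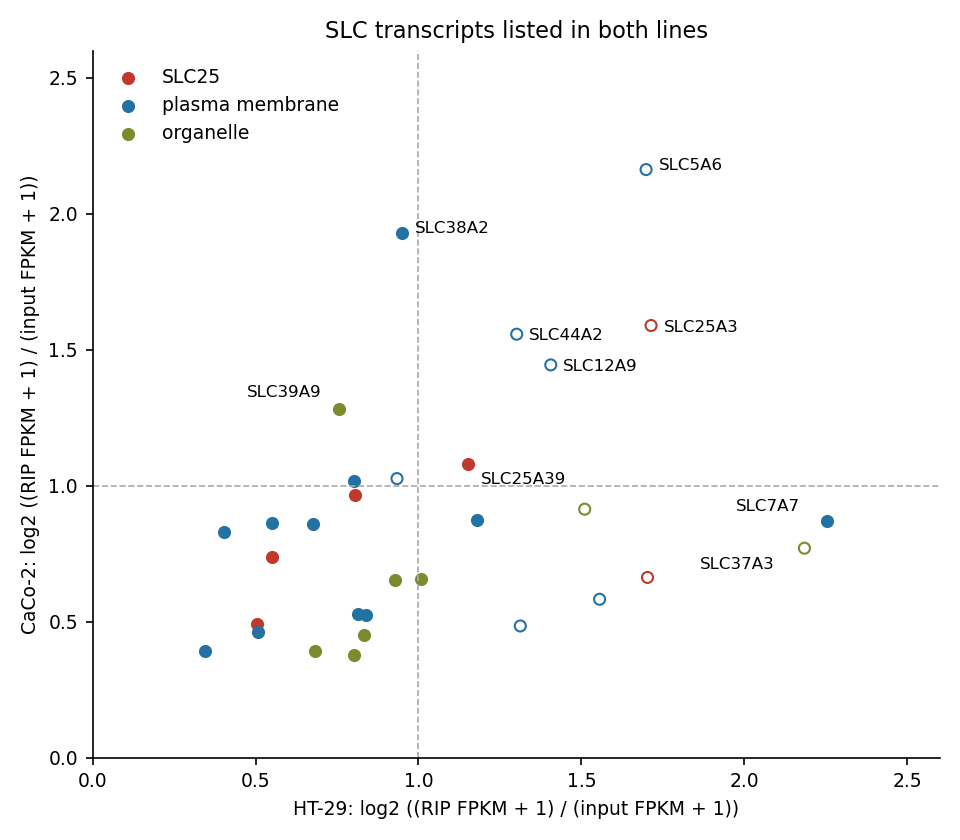
log2 ratio of RIP over input (FPKM plus 1) in HT-29 (x axis) and CaCo-2 (y axis) for the 31 SLC transcripts listed in both lines, coloured by the usual site of the protein. Open circles had input listed at 0 in at least 1 line, and dashed lines mark a 2-fold ratio. The upper right holds 5 transcripts, of which SLC25A39, at 1.15 and 1.08, and SLC25A3, at 1.71 and 1.59, are the SLC25 members.

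Some shared transcripts had unlike ratios in the lines. SLC37A3, known at the lysosome, was at 3.55 FPKM in the RIP versus 0 in input in HT-29 and 2.40 FPKM in the RIP versus 0.994 in input in CaCo-2, with log2 ratios of 2.18 and 0.77. SLC4A2 had a protein-coding form at 1.94 FPKM in the RIP versus 0 in input in HT-29 and at 4.14 FPKM in the RIP versus 2.43 in input in CaCo-2. SLC39A5, a zinc importer of the gut and pancreas, was at 1.48 FPKM in the RIP versus 0 in input in HT-29 and at 3.11 FPKM in the RIP versus 1.94 in input in CaCo-2. An input of 0 fixes a high ratio in the line that has it. Unlike ratios also came without one, as for the SLC38A2 form given above (0.95 in HT-29, 1.93 in CaCo-2) and for SLC39A9 (0.75 in HT-29, 1.28 in CaCo-2). The tables were normalised separately, and no difference between the lines was tested.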

How the data were processed

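The authors deposited 1 Cuffdiff table per line, with 1 row per Ensembl transcript and FPKM values for the RIP and the input. Per the submitters' processing notes the tools were CASAVA 1.4, Bowtie2, TopHat2 2.0.8, Cufflinks and Cuffdiff on hg19. The sources used here give no other version and no strandedness. The p-values and q-values in the deposited tables come from 1 library per side, and q is quoted as the authors'. The fold and test statistic columns, with a placeholder where input is 0, were not used. Deposited starts count from 0 and are printed from 1.

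Computed here with Python 3.11.15 and pandas 2.3.3 were log2 ratios with a pseudocount of 1 FPKM, which understates low transcripts, a filter of 1 FPKM in at least 1 library, counts at 2-fold and medians. The computations were tested on simulated data. Of the SLC names, 138 of 141 matched RefSeq symbols and 3 a synonym. The number of per-sample columns left unmapped was 0. Members and lists were chosen with earlier results of these data known. The naming rule took, per line, the 10 highest ratios, the 5 highest RIP levels, q at or below 0.05, members at 2-fold with 1 FPKM in both libraries or in both lines, shared SLC25 transcripts, up to 4 per substrate list by RIP level and the pair nearest 2-fold. Not all of those per substrate list are described, and others were chosen after their values were seen. One result under this rule is not reported here. Substrate lists go by family number. A mock precipitation was not analysed here.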

Additional observations from a re-analysis of the deposited data

How the results depend on the processing

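No paired analysis was possible because each group held 1 library and the libraries carry no replicate numbers, and for the same reason no library could be left out. Values below are in the order SLC, SLC25, plasma membrane and organelle transcripts unless named. Settings that keep fewer transcripts lower the counts by construction. A pseudocount of 0.1 FPKM gave 106, 18, 62 and 26 at 2-fold in HT-29, where the SLC25 share (18 of 23, 78.3%) was then above that of plasma membrane transcripts (62 of 83, 74.7%), and 93, 11, 54 and 28 in CaCo-2. The medians with this pseudocount were 1.61, 1.19, 1.70 and 2.14 in HT-29, beside 1.84 for all transcripts. For CaCo-2 they were 1.19, 0.98, 1.31 and 1.10, beside 1.43 for all, so it lifted every group. Requiring 1 FPKM in both libraries gave 8, 1, 6 and 1 in HT-29, where 25.2% of all transcripts were at 2-fold. For CaCo-2 it gave 6, 2, 2 and 2, beside 13.1% of all. The medians were then 0.70, 0.76, 0.65 and 0.72 in HT-29, and for CaCo-2 they were 0.57, 0.62, 0.57 and 0.55. Leaving out transcripts at 0 in input, an alternative chosen after seeing the data, gave 27, 4, 19 and 4 in HT-29. In CaCo-2 it gave 21 SLC, 12 plasma membrane and 5 organelle transcripts. The SLC shares were 28.1% and 16.8%, beside 35.5% and 19.5% of all transcripts. Medians under this setting were 0.78, 0.80, 0.80 and 0.72 in HT-29, and for CaCo-2 they were 0.61, 0.62, 0.66 and 0.58. With 1 transcript per gene the counts were 44 SLC, 26 plasma membrane and 12 organelle transcripts in HT-29, and for CaCo-2 they were 33, 3, 20 and 10. The SLC shares were 50.6% in HT-29 and 34.7% in CaCo-2, beside 55.6% and 41% of all. The medians that moved were then 1.01 for SLC, 1.08 for plasma membrane and 1.01 for organelle transcripts in HT-29, and 0.74, 0.86 and 0.71 for the same groups in CaCo-2. Protein-coding transcripts alone gave 40, 4, 26 and 10 in HT-29, beside 53.2% of all protein-coding transcripts, with medians of 1.18, 0.98, 1.27 and 0.88. In CaCo-2 they gave 30, 5, 18 and 7, with medians of 0.70, 0.63, 0.77 and 0.57. The CaCo-2 SLC25 share (5 of 12, 41.7%) was above that of plasma membrane transcripts (18 of 48, 37.5%), beside 42% of all protein-coding transcripts. Without the filter, the CaCo-2 medians were 0.76 for SLC, 0.86 for plasma membrane and 0.69 for organelle transcripts. The counts at 2-fold stayed the same in both lines by construction. A transcript below 1 FPKM cannot reach 2-fold with a pseudocount of 1 FPKM. The 5 of 31 transcripts at 2-fold in both lines became 16 of 31 with the smaller pseudocount and 3 of 17 among protein-coding transcripts. They became 1 of 21 without transcripts at 0 in input. For these 3 settings the share of all transcripts in both lines is not given here. With 1 FPKM in all libraries there was 1 of 8, beside 12.7% of all. Counted by gene name there were 20 of 50, beside 42.1% of all.

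Depth is unknown from FPKM, so no counting interval was given, and the number of fragments behind a ratio is not known. Transcripts of a gene overlap, and the split of reads among them was the authors' estimate, so an input of 0 for a transcript beside another at a high level is a limit on reading either alone. Whether the antibody or the beads set the ratios was not tested.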

Other observations

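Other transport genes were listed too, and their counts stand beside 56.0% of all transcripts at 2-fold in HT-29 and 40.8% in CaCo-2. Of 9 genes that partner or power SLC transporters (BSG, EMB and sodium, potassium or calcium pumps), the HT-29 table held 4, with 7 of 10 transcripts past the filter at 2-fold, and that of CaCo-2 held 6, with 3 of 16. Of 13 genes for carrier import and mitochondrial porins, 6 were listed in HT-29, with 5 of 8 transcripts at 2-fold, and 8 in CaCo-2, with 4 of 8. The input was 0 for 3 of the 8 HT-29 transcripts. In CaCo-2 it was 0 for each transcript at 2-fold except that of TOMM22. Among these genes TOMM40, the channel through which mitochondrial proteins enter, was at 15.2 FPKM in the RIP versus 0.0274 in input in HT-29. VDAC2, an outer membrane porin, was at 11.6 FPKM in the RIP versus 0 in input in HT-29. The authors' q was 0.790 for this TOMM40 transcript and 0.000189 for this VDAC2 transcript. Genes of the ABC family, most of which pump substrates with ATP, had 13 of 31 HT-29 transcripts (41.9%) at 2-fold. In CaCo-2 they had 15 of 26 (57.7%), and the input was 0 for 7 and 12. The family was taken by gene name, so it includes ABCE1 and ABCF genes, which are not known as transporters. All ABCE1 and ABCF transcripts listed in CaCo-2 were at 2-fold, each with an input of 0, which fixes such a ratio. In HT-29 only a retained-intron ABCE1 form was, also with an input of 0. None of these counts was tested.

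Of 12 colon epithelium markers, the HT-29 table held 8 and that of CaCo-2 held 6. At 2-fold were 8 of their 14 HT-29 and 6 of their 12 CaCo-2 transcripts past the filter, beside 56.0% and 40.8% of all. KRT18, a keratin of simple epithelia, had a protein-coding transcript at 54.3 FPKM in the RIP versus 14.7 in input in HT-29 and 32.0 in the RIP versus 11.6 in input in CaCo-2. Its other HT-29 transcripts, both retained-intron forms, were at 32.5 FPKM in the RIP versus 17.5 in input and 25.7 in the RIP versus 16.7 in input. Of 8 markers of immune, endothelial, fibroblast and muscle cells, 0 were listed in either line.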
